A study of Mus musculus with 4 samples.

Results

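Coagulation and plasminogen activation were followed through 7 genes, F3, F10, Plau, Plaur, Serpinb2, Thbs1 and Thbd, taken by symbol and NCBI gene identifier out of 15935 genes listed in any library. All 7 were listed in at least 1 library. RNA-seq was run on macrophages derived from mouse bone marrow, which are marrow cells grown here for 5 days in DMEM with medium conditioned by M-CSF, a growth factor that turns marrow progenitors into macrophages. The libraries were KO LPS, WT LPS, KO NT and WT NT, 1 per group. KO marrow came from adult C57BL/6 mice of the genotype ezh2f/f lysmcre, labelled EZH2-/-, in which Cre is driven by the lysozyme M gene and is therefore active in myeloid cells. WT marrow came from adult wild type C57BL/6 mice, and the labels do not say whether these carried Cre. LPS is lipopolysaccharide, the bacterial agonist of Toll-like receptor 4, given for 2 h, and NT cells received none. Neither the LPS dose nor the number of mice behind a culture is stated in the labels. Without replicates no difference below has a test, and the 95% intervals quoted cover counting error alone, not the spread between animals or cultures.

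Blood clotting outside the contact pathway starts when tissue factor, a membrane protein encoded by F3, binds factor VIIa and the complex activates factor X, the product of F10. Active factor X makes thrombin, and thrombomodulin, encoded by Thbd, captures thrombin on the cell surface and turns it towards activation of the anticoagulant protein C. Clots are dissolved by plasmin, which urokinase (Plau) releases from plasminogen, most efficiently on its membrane receptor (Plaur), and which is held back where urokinase is inhibited, as by the product of Serpinb2. Thbs1 encodes thrombospondin 1, a matrix glycoprotein also stored in platelets, which binds CD36, CD47 and integrins. Monocytes and macrophages exposed to LPS are a known source of tissue factor and of the Serpinb2 product.

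The total expected count per library, which is the authors' estimate of reads assigned to genes, ran between 5237782 and 5678451. Ezh2 was low in every library, at 1.29 FPKM in KO LPS and 2.52 in WT LPS, and 2.06 in KO NT and 2.84 in WT NT. The KO to WT ratio of Ezh2 was 0.512 with LPS (0.275 to 0.919) and 0.725 without LPS (0.441 to 1.18), and the second interval includes 1. The 8 macrophage markers were all listed in every library and summed to between 4324 and 4476 FPKM, although single markers differed with LPS. Cd14 was at 1178 FPKM in KO LPS and 1263 in WT LPS, and 334 in KO NT and 323 in WT NT, while Mertk was at 6.76 FPKM in KO LPS and 7.32 in WT LPS, and 25.3 in KO NT and 21.7 in WT NT. Of 6 endothelial markers 5 were under 1 FPKM in every library, Tek was listed in none, and Kdr made up most of the sum, which was 6.95 FPKM in KO LPS and 10.9 in WT LPS, and 8.34 in KO NT and 13.9 in WT NT. The 7 platelet and megakaryocyte markers summed to 75.4 FPKM in KO LPS and 69.3 in WT LPS, and to 80.4 in KO NT and 59.1 in WT NT, most of it Pf4. The 7 neutrophil markers summed to 470 FPKM in KO LPS and 342 in WT LPS, and 556 in KO NT and 316 in WT NT. The 7 fibroblast and stromal markers summed to 3.59 FPKM in KO LPS and 7.07 in WT LPS, and 3.69 in KO NT and 6.65 in WT NT. Of 3 hepatocyte markers only Alb was listed, at 0.09 FPKM in KO NT.

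Promoter sequence was at hand for 4 of the 7 genes, in RefSeq windows of GRCm38.p6, and these 4 are the genes of the set that were at least 4-fold more abundant with LPS. They are shown because they let the reader compare what lies before the start sites of genes that moved together. Each line runs 5′ to 3′ on the gene's own strand, which is the plus strand for all 4, and capitals mark matches to the AP-1 motif TGANTCA. The windows lie at chr3:121723287-121723586 for F3, chr7:24462233-24462532 for Plaur, chr1:107511173-107511472 for Serpinb2 and chr8:13037058-13037357 for F10. Serpinb2 has 2 annotated start sites in the table and the upstream one is printed. The annotated genes of Serpinb2 and Plaur begin upstream of these windows.
F3: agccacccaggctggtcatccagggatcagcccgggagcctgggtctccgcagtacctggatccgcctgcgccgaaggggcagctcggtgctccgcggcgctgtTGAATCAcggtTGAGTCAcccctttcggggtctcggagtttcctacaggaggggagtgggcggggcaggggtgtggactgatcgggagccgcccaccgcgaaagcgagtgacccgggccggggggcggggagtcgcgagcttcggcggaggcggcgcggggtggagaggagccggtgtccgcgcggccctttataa
Plaur: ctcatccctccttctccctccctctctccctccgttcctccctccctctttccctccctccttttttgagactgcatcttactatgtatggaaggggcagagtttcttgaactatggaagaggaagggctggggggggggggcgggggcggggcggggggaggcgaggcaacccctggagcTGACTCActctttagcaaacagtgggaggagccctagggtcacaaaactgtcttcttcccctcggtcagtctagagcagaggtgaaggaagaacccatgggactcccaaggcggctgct
Serpinb2: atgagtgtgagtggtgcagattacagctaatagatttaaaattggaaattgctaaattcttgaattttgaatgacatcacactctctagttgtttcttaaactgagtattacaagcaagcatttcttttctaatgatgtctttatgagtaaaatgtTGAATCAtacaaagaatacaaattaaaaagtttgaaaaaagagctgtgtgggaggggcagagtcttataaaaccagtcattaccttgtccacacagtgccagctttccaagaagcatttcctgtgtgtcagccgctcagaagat
F10: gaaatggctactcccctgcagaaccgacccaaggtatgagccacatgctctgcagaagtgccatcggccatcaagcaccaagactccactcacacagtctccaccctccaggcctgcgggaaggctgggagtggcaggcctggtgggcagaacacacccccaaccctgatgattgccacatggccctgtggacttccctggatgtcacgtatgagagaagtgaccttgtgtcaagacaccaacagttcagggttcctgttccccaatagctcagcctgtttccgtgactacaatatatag

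F3 held a pair of AP-1 matches, beginning 146 and 135 bases before the start site. Plaur held 1, beginning 69 bases before it, and Serpinb2 held 1, beginning 94 bases before it. F10 held none. AP-1 is a family of Fos and Jun dimers, and TGANTCA occurs in 7.81% of the 32851 promoter windows of this length. Both strands were searched, and the motif reads the same on both apart from its central base. Sp1 letters (GGGCGG, in 35.7% of windows) were found 3 times in F3 and 3 times in Plaur, the last 2 in Plaur overlapping by 1 base. One match to the Egr motif GCGNGGGCG, found in 5.55% of windows, overlapped the first 2 Sp1 matches of Plaur. The TATA letters TATAAA (13.6% of windows) began 29 bases before the Serpinb2 start site, and F3 had them on the minus strand only, after its start. No window of the 4 matched the NF-kB consensus GGGRNNYYCC (8.46% of windows) or the CRE letters TGACGTCA (1.79%). In these letters R is A or G, Y is C or T and N is any base. Only exact matches were taken, so an NF-kB site that departs from GGGRNNYYCC, even at 1 base, would not be found. The GC content was 70.3% for F3, 59.3% for Plaur, 55.7% for F10 and 35.3% for Serpinb2, against a median of 52.7% over all windows. These matches describe letters in a window and say nothing of binding.

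**Figure D1:**
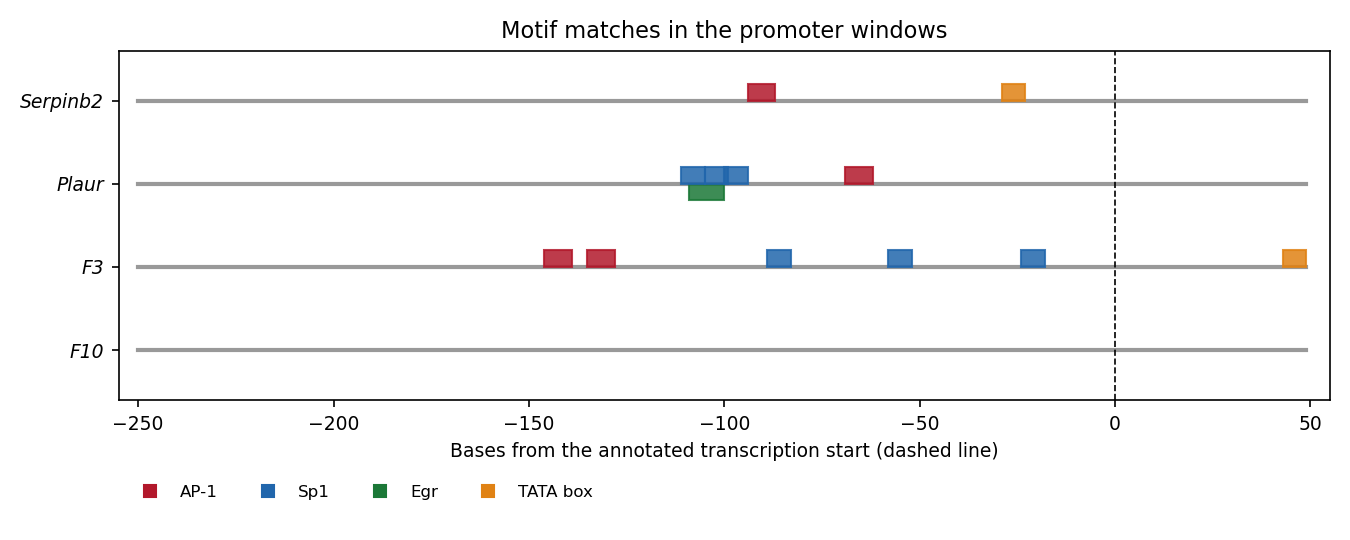
Motif matches in the promoter windows of Serpinb2, Plaur, F3 and F10, by distance in bases from the annotated transcription start (dashed line). AP-1 matches stand before the start in Serpinb2, Plaur and F3, and the F10 window holds no match to any motif searched.

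The first question is what LPS did to the clotting genes in each genotype. F3 (gene ID 14066, chromosome 3, 121723537 to 121735052 in GRCm38, plus strand, 6 exons) was at 6.33 FPKM in KO LPS and 10.8 in WT LPS, and 0.09 in KO NT and 0.09 in WT NT. Both NT values rest on 1 count each, against 62 counts in KO LPS and 114 in WT LPS. Tissue factor RNA was therefore at the limit of detection without LPS and plainly detected with it in both genotypes. The LPS to NT ratio was 70.3 in KO (11.6 to 2693) and 120 in WT (20.2 to 4577). On the log2 scale of FPKM + 1, which damps low genes and is the scale used for all folds below, these are 2.75 and 3.44.

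F10 (gene ID 14058, chromosome 8, 13037308 to 13056676, plus strand, 9 exons) was at 14.1 FPKM in KO LPS and 9.94 in WT LPS, and 2.91 in KO NT and 2.29 in WT NT. Its transcripts were thus present without LPS and more abundant with it. The LPS to NT ratio was 4.85 in KO (3.49 to 6.95) and 4.34 in WT (2.99 to 6.47). The expected counts of F10 were fractional in all 4 libraries, which means that some of its reads were shared with other genes, so its level is less certain than those of the other 6 genes. Their counts were whole numbers throughout.

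Thbd (gene ID 21824, chromosome 2, 148404471 to 148408188, minus strand, a single-exon gene) went the other way. It was at 3.11 FPKM in KO LPS and 0.85 in WT LPS, and 6.32 in KO NT and 6.26 in WT NT, from 61, 18, 134 and 133 counts. Both LPS libraries were below both NT libraries, and WT LPS was lowest. The LPS to NT ratio was 0.492 in KO (0.358 to 0.672) and 0.136 in WT (0.0784 to 0.224), with log2 folds of -0.83 and -1.97. Over all genes the median log2 fold was -0.42 in KO and -0.46 in WT, with lower quartiles of -0.78 and -0.83. The KO fold of Thbd thus lay near that quartile. With median-ratio scaling the Thbd folds became -0.48 in KO and -1.66 in WT. In a bulk library, fewer cells that express a gene and less of its RNA per cell cannot be told apart.

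Among the plasminogen activation genes, Serpinb2 (gene ID 18788, chromosome 1, 107500892 to 107525600, plus strand, 8 exons) was not listed in either NT library. It reached 39.5 FPKM in KO LPS and 34.4 in WT LPS, from 412 and 385 counts. Against a floor of 3 counts in the NT library, the LPS level was at least 148-fold higher in KO and at least 129-fold higher in WT. By log2 fold it stood 27th of 11069 genes in KO and 35th of 10972 in WT.

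Plaur (gene ID 18793, chromosome 7, 24460937 to 24475970, plus strand, 7 exons) was at 197 FPKM in KO LPS and 211 in WT LPS, and 23.6 in KO NT and 27.7 in WT NT. The urokinase receptor was the most abundant RNA of the set with LPS. Its LPS to NT ratio was 8.35 in KO (7.20 to 9.72) and 7.62 in WT (6.65 to 8.77).

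Plau (gene ID 18792, chromosome 14, 20836662 to 20843388, plus strand, 11 exons) was at 113 FPKM in KO LPS and 135 in WT LPS, and 132 in KO NT and 174 in WT NT. Urokinase RNA was high in every library and led the set in both NT libraries. Its LPS to NT ratio was 0.856 in KO (0.797 to 0.918) and 0.773 in WT (0.726 to 0.823), so it differed far less than its receptor or the Serpinb2 inhibitor. The log2 folds of -0.22 and -0.37 lie above the median of all genes, and with libraries scaled by their median ratio they became 0.20 and 0.11, so the direction for Plau depends on the scaling.

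Thbs1 (gene ID 21825, chromosome 2, 118111876 to 118127133, plus strand, 22 exons) was at 28.6 FPKM in KO LPS and 18.5 in WT LPS, and 9.86 in KO NT and 7.64 in WT NT. Thrombospondin 1 RNA was thus higher with LPS in both genotypes, with a ratio of 2.90 in KO (2.55 to 3.30) and 2.42 in WT (2.09 to 2.81). The log2 folds were 1.44 and 1.17.

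**Figure D2:**
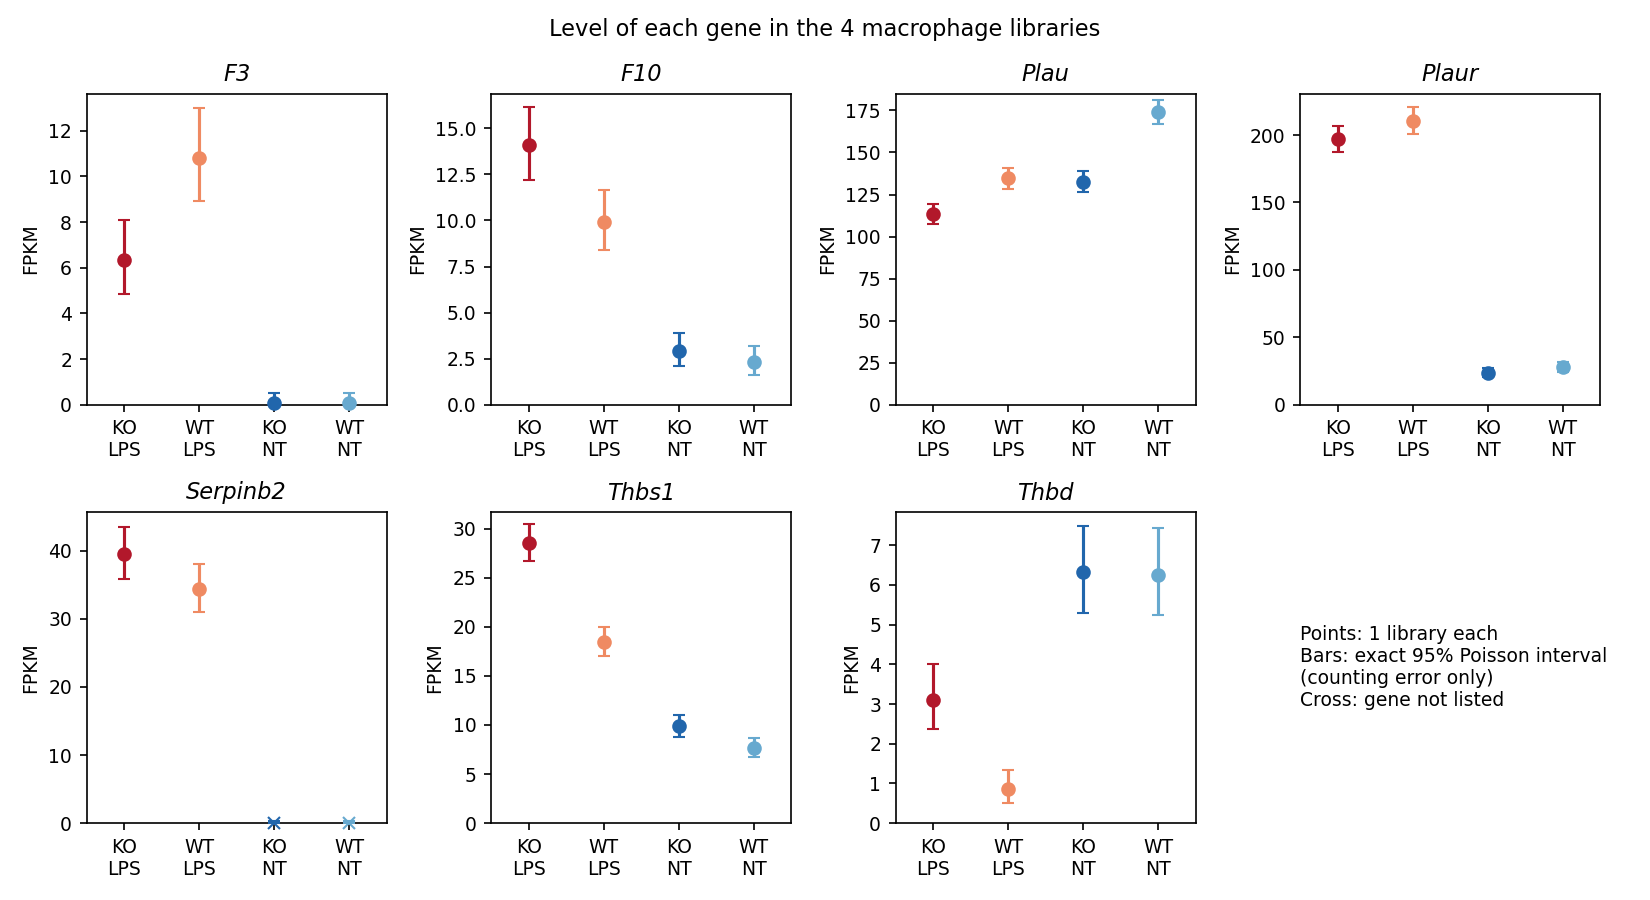
FPKM of the 7 genes in KO LPS, WT LPS, KO NT and WT NT, 1 library per point, with exact 95% Poisson intervals for counting error. F3 and Serpinb2 lie at or near 0 in both NT libraries, Plaur, F10 and Thbs1 are higher in both LPS libraries, Plau is of the same order throughout, and Thbd is lowest in WT LPS at 0.85 FPKM.

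In all, 5 of the 7 genes (F3, F10, Plaur, Serpinb2 and Thbs1) passed 2-fold upwards with LPS in KO on the FPKM + 1 scale. None passed it downwards, and Thbd, at a plain ratio of 0.492, fell short on that scale. Of all 11069 genes of at least 1 FPKM, 6.61% were higher and 15.1% lower. The same 5 were at least 2-fold higher in WT, and Thbd was at least 2-fold lower, against 6.41% of 10972 genes higher and 17.2% lower. The median log2 fold of the 7 was 1.95 in KO and 1.73 in WT, against -0.42 and -0.46 over all genes. Scaling the libraries by their median ratio moved the median of all genes to -0.03 in both genotypes. It also changed the split of all genes past 2-fold, of which 58.8% were then higher in KO against 30.5% as deposited, and 56% against 27.1% in WT. The 5 genes were higher under both scalings. F3 and Serpinb2 reached 1 FPKM through the LPS libraries alone, so they could enter this count only by being higher with LPS. Thbd in WT reached 1 FPKM through the NT library alone, so there it could be counted only as lower.

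**Figure D3:**
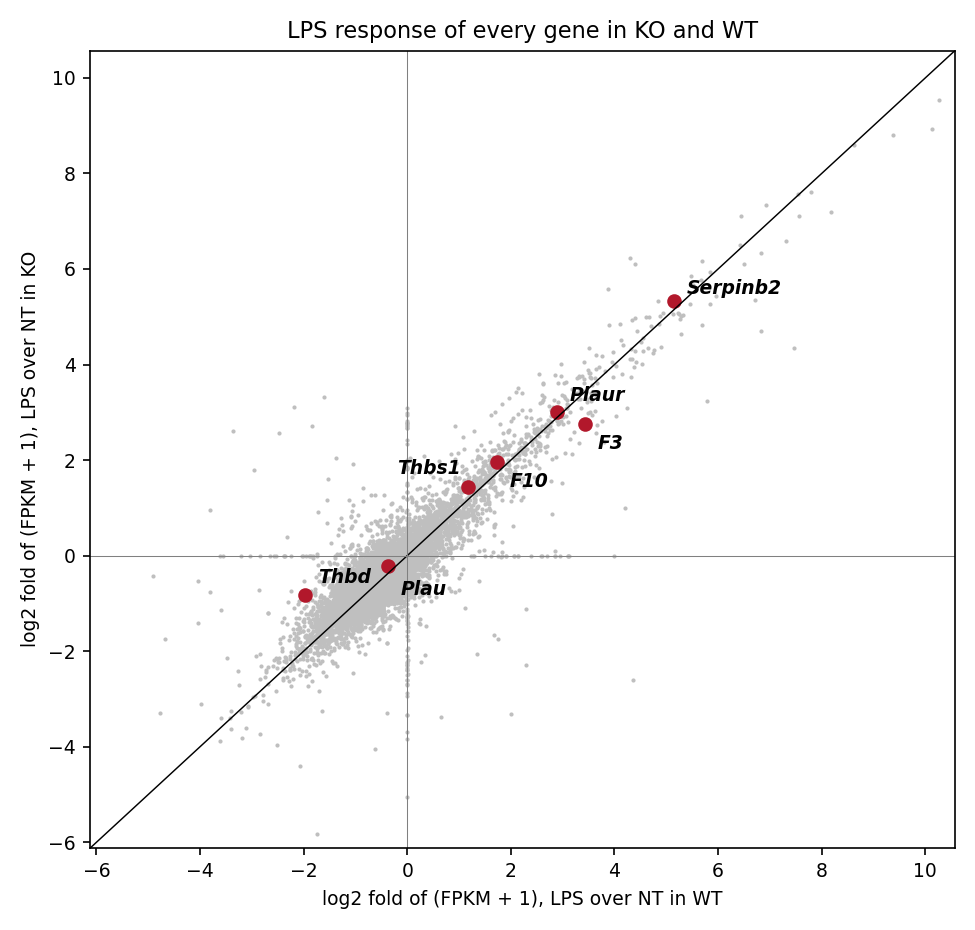
Log2 fold of FPKM + 1 for LPS over NT in KO (vertical) against WT (horizontal), for genes of at least 1 FPKM in a library, with the 7 genes in red and the line of equal response in black. Serpinb2, Plaur, F10, Thbs1 and Plau lie close to the line, F3 lies 0.69 below it and Thbd lies 1.14 above it.

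The second question is how the genotypes differed once LPS had been given. Thbd was the only gene of the 7 past 2-fold. Its 3.11 FPKM in KO LPS, against 0.85 in WT LPS, gave a ratio of 3.66 (2.13 to 6.56) and a log2 fold of 1.15, which ranked 111th from the top of 10375 genes. In this comparison 1.45% of all genes passed 2-fold upwards and 1.12% downwards. With LPS, Thbd reached 1 FPKM in KO alone, so between these libraries it could be counted only as higher in KO. The endothelial markers, a class for which thrombomodulin is typical, summed to 6.95 FPKM in KO LPS and 10.9 in WT LPS, of which Kdr made up 6.23 and 10.3 FPKM. Of the other 5, Cdh5 was lower in KO LPS, Pecam1, Tie1 and Emcn were higher there, all under 1 FPKM, and Tek was listed in neither. Their part in the Thbd value was not tested. With counts scaled to equal totals (CPM), 232 of all genes were higher and 116 lower, so 66.7% of those past 2-fold were higher, against 56.4% as deposited.

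F3 was lower in KO LPS, at 6.33 FPKM against 10.8 in WT LPS, a ratio of 0.586 (0.422 to 0.804). Tissue factor and thrombomodulin RNA thus differed in opposite directions between the LPS libraries. The Thbd to F3 ratio of FPKM was 0.491 in KO LPS and 0.0786 in WT LPS. F10, the substrate of the tissue factor complex, was higher in KO LPS by a ratio of 1.42 (1.14 to 1.76). Thbs1 was also higher, by a ratio of 1.55 (1.39 to 1.72). The platelet and megakaryocyte markers summed to 75.4 FPKM in KO LPS and 69.3 in WT LPS, of which Pf4 made up 65.5 and 62.7. Of the others, Ppbp, Itga2b, Gp9 and Treml1 were higher in KO LPS, and Gp1bb and Gp6 were lower there. Their part in the Thbs1 value was not tested.

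The urokinase system was close between the genotypes with LPS. Plau had a KO to WT ratio of 0.842 (0.784 to 0.903), Plaur of 0.934 (from 0.872 to just over 1) and Serpinb2 of 1.15 (0.997 to 1.32). The intervals of Plaur and Serpinb2 include 1. None of the 3 was near 2-fold, although these intervals do not show that the genotypes act alike.

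Without LPS, 5 of the 7 genes reached 1 FPKM in a library, and none of the 5 was 2-fold apart between KO and WT, where 0.928% of 10990 genes were higher and 0.883% lower. Thbd was nearly identical, at 6.32 FPKM in KO NT and 6.26 in WT NT, a ratio of 1.01 (0.788 to 1.29). The untreated cultures thus gave no counterpart to the difference seen for Thbd with LPS. Plau was lower in KO NT, at 132 FPKM against 174 in WT NT (ratio 0.761, 0.715 to 0.810), and Thbs1 higher, with a ratio of 1.29 (1.09 to 1.52). The intervals of Plaur (0.852, 0.702 to 1.03) and F10 (1.27, 0.791 to 2.04) include 1. F3 had 1 count in each library and Serpinb2 none, so a genotype difference was not detectable at this depth for either.

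**Figure D4:**
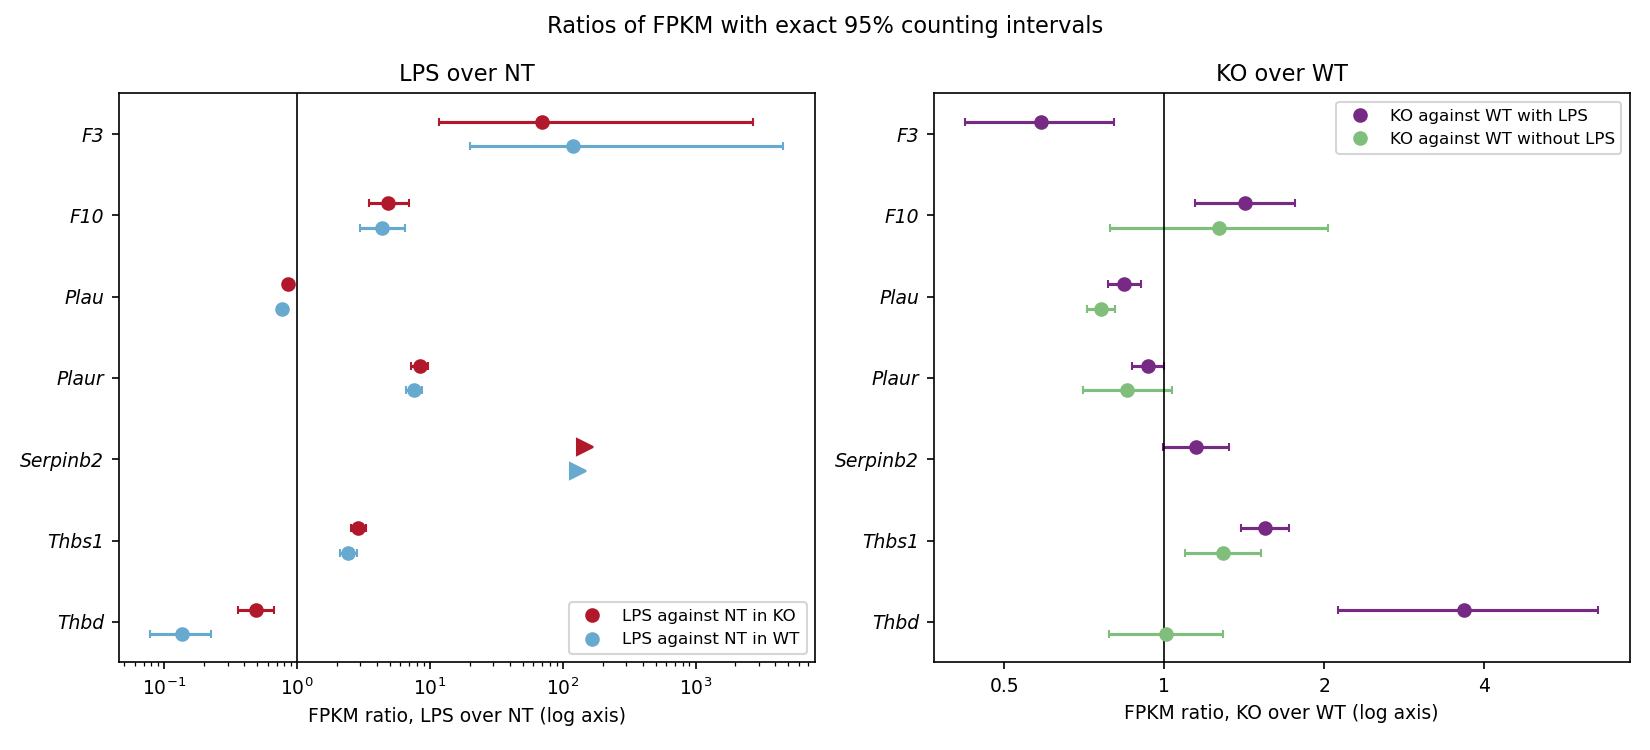
Ratios of FPKM on log axes, LPS over NT (left) and KO over WT (right), with exact 95% intervals for counting error; arrowheads for Serpinb2 mark lower bounds against 3 counts. The right panel leaves out F3 and Serpinb2 without LPS, with at most 1 count a library, and Thbd with LPS stands furthest from 1, at 3.66.

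The third question is whether the LPS response itself differed between genotypes. The difference of log2 folds, KO minus WT, was 1.14 for Thbd, and it lay between -0.69 and 0.27 for the other 6. Thbd was the only one past 2-fold, where 1.9% of 11320 genes had a 2-fold or more higher response in KO and 1.42% a 2-fold or more lower one. As a ratio of LPS to NT ratios, Thbd gave 3.62 with an exact interval of 1.97 to 6.84, so the relative drop with LPS was smaller in KO. For Plau the ratio of ratios was 1.11 (1.01 to 1.22). The intervals of F10 (1.12, 0.662 to 1.89), Plaur (1.10, 0.892 to 1.35) and Thbs1 (1.20, 0.983 to 1.46) include 1. For F3 the single NT counts leave the ratio of ratios undetermined, between 0.00738 and 46.6, so the lower F3 level in KO LPS cannot be told apart here from a difference already present without LPS.

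Levels within a gene can be ordered across libraries. For Thbs1 each step of the order KO LPS, WT LPS, KO NT, WT NT was larger than counting error. For F10 the order was the same, but the NT libraries did not differ beyond counting error. For Thbd the NT libraries were level and above KO LPS, which in turn was above WT LPS. For Plau as deposited, WT NT was highest and KO LPS lowest. WT LPS and KO NT did not differ beyond counting error there (ratio 1.02, 0.951 to 1.09). This order depends on the scaling. With median-ratio scaling the log2 folds of Plau with LPS became 0.20 in KO and 0.11 in WT. In F3 the order was WT LPS, KO LPS and then the NT libraries, and in Plaur and Serpinb2 neither the LPS pair nor the NT pair differed beyond counting error.

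Because FPKM is per length, the genes can also be set against each other. Receptor RNA exceeded urokinase RNA with LPS, with a Plaur to Plau ratio of 1.74 in KO LPS and 1.57 in WT LPS, whereas it was 0.178 in KO NT and 0.159 in WT NT. The Serpinb2 to Plau ratio was 0.348 in KO LPS and 0.255 in WT LPS, and 0 in both NT libraries. Plaur and Plau held the top places of the set in every library and exchanged them with LPS. Thbd was the lowest of the 7 in both LPS libraries.

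The wider plasminogen system was taken from a list of which 13 genes are described, and 8 of these reached 1 FPKM for LPS against NT in KO and 7 in WT. On the FPKM + 1 scale, Plat was at least 2-fold higher with LPS in both genotypes and no measured gene of the list was 2-fold lower. As a plain ratio, Serpine2 in KO was past 2-fold lower, at 0.151 (0.0171 to 0.673), on 2 counts with LPS and 14 without. Mrc2, under 1 FPKM throughout, had 0 counts in both LPS libraries, 5 in KO NT and 6 in WT NT. Over all genes, 6.61% were higher and 15.1% lower in KO, and 6.41% higher and 17.2% lower in WT. Plat reached 1 FPKM through the LPS libraries alone, so it could be counted only as higher with LPS. Plat, which encodes the tissue-type plasminogen activator, was at 3.56 FPKM in KO LPS and 4.89 in WT LPS, with 1 count in each NT library. Its LPS to NT ratio was 50.9 in KO (8.89 to 2094) and 69.9 in WT (12.4 to 2865). The median log2 fold of the measured genes among the 13 was -0.27 in KO and -0.23 in WT, against -0.42 and -0.46 over all genes. Between genotypes none of the measured genes of this list was 2-fold apart in either state. Over all genes the shares were 2.56% with LPS and 1.81% without. Anxa2 and S100a10, which form a plasminogen-binding complex at the cell surface, had LPS to NT ratios of 1.33 and 1.37 in KO and of 1.25 and 1.43 in WT.

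On the FPKM + 1 scale, no other coagulation factor that could be measured passed 2-fold upwards with LPS. Over all genes, 6.61% did in KO and 6.41% in WT. The coagulation factor list had 18 genes, of which 11 were listed in a library. For LPS against NT, 6 reached 1 FPKM in KO and 5 in WT. Ggcx and Vkorc1l1, which encode enzymes of vitamin K-dependent carboxylation, were at least 2-fold lower in WT, at log2 folds of -1.01 and -1.13, and stood at -0.44 and -0.69 in KO. They are 2 of 5 measured genes, where 17.2% of all genes were 2-fold lower in WT, and the counts of Ggcx were fractional, so its level is uncertain. The list medians of -0.38 in KO and -0.37 in WT are close to those of all genes. F7, whose product is the partner of tissue factor, had 12 counts in KO LPS and 6 in WT LPS, and 4 in KO NT and 3 in WT NT. Vwf, a carrier protein of endothelium and megakaryocytes, was at 8.65 FPKM in KO LPS and 12.8 in WT LPS, and 9.07 in KO NT and 16.8 in WT NT. It was lower in KO in both states, as were the endothelial marker sum, mostly Kdr, and the fibroblast and stromal sum. Pecam1 and Emcn were higher in KO in both states, Tie1 with LPS and Cdh5 without, all under 1 FPKM. The part of these markers in the Vwf values was not tested. F13a1, which encodes the fibrin cross-linking subunit, was higher in KO, by ratios of 1.91 with LPS (1.38 to 2.65) and 1.88 without (1.43 to 2.49).

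The anticoagulant list had 11 genes, of which 5 reached 1 FPKM for LPS against NT in either genotype. On the FPKM + 1 scale none passed 2-fold in any of the 4 comparisons. Over all genes, 21.7% passed it either way with LPS in KO and 23.6% in WT. Between genotypes 2.56% did with LPS and 1.81% without. As plain ratios, Procr between genotypes with LPS and Proz for LPS against NT were past 2-fold, Proz on at most 22 counts. The list median with LPS was -0.64 in KO and -0.65 in WT, against -0.42 and -0.46 over all genes, and -0.25 in both genotypes with median-ratio scaling. Procr, the endothelial protein C receptor and a partner of thrombomodulin, was higher with LPS, where Thbd was lower, and lower in KO LPS than in WT LPS, where Thbd was higher. It was at 8.57 FPKM in KO LPS and 17.5 in WT LPS, and 5.44 in KO NT and 10.7 in WT NT. Its LPS to NT ratio was 1.58 in KO (1.07 to 2.35) and 1.63 in WT (1.24 to 2.14), and its KO to WT ratio was 0.491 with LPS (0.362 to 0.659) and 0.507 without (0.347 to 0.730). The endothelial marker sum, mostly Kdr, and the fibroblast and stromal sum were also lower in KO in both states. Single markers went the other way, as Pecam1 and Emcn in both states, Pdgfrb with LPS and Dcn without. The part of these markers in the Procr values was not tested. Pros1, which encodes the protein C cofactor protein S, was at 6.76 FPKM in KO LPS and 3.94 in WT LPS, and 11.1 in KO NT and 6.77 in WT NT. Tfpi, the inhibitor of the tissue factor complex, had a KO to WT ratio of 1.02 with LPS (0.676 to 1.55).

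The 4 thrombin and protease-activated receptor genes stayed under 1 FPKM in every library, so no fold was given for them. Among thrombospondins and their receptors, 5 of 9 genes reached 1 FPKM in every comparison, and Itgav was the only one at least 2-fold higher with LPS. Over all genes, 6.61% were higher in KO and 6.41% in WT. The list median with LPS was 0.07 in KO and 0.10 in WT, and 0.50 and 0.58 with median-ratio scaling. Its sign changed in CPM, where 6 genes were measured, to -0.13 in KO and -0.01 in WT. Itgav, an integrin subunit, was at 126 FPKM in KO LPS and 90.6 in WT LPS, and 32.7 in KO NT and 22.6 in WT NT. The other members of the Thbs family on the list, Thbs2, Thbs3 and Thbs4, had at most 7 counts in any library. Of 16 other clade B serpins 11 were listed in a library. None of the 6 measured in KO or the 5 measured in WT was 2-fold apart with LPS. Over all genes, 21.7% were 2-fold apart in KO and 23.6% in WT. Serpinb2 had log2 folds of 5.34 in KO and 5.14 in WT. These sizes depend on the 1 FPKM added, because its NT values are 0. The median of the measured clade B genes was -0.40 in KO and -0.34 in WT, but 0.14 and 0.07 with median-ratio scaling, so its sign depends on the scaling. Serpinb6b was at least 2-fold higher in KO in both states, at 5.79 FPKM in KO LPS against 1.73 in WT LPS and 8.79 in KO NT against 2.39 in WT NT, with fractional counts that leave its level uncertain. With LPS 1.45% of all genes were 2-fold higher in KO, and without it 0.928%.

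**Figure D5:**
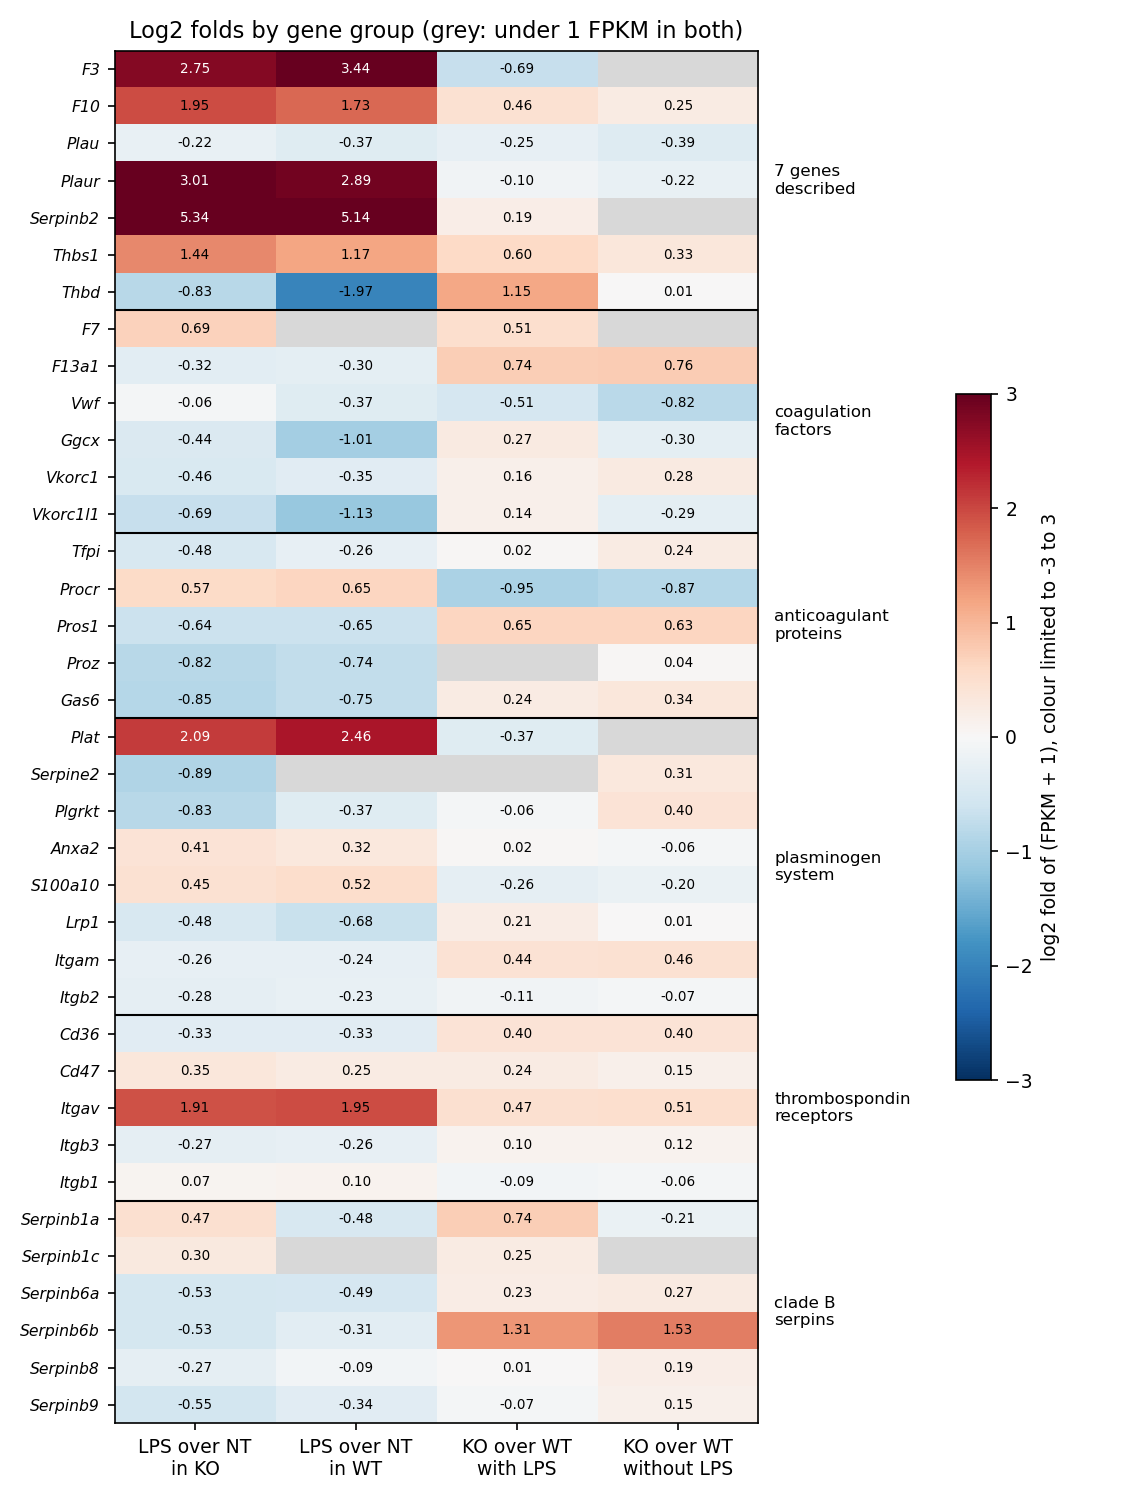
Log2 folds of FPKM + 1 in the 4 comparisons for the 7 genes and for the genes of the wider lists that reached 1 FPKM, with grey where both libraries were under 1 FPKM. The deepest red cells for LPS are Serpinb2, Plaur, F3 and Plat, and Thbd is the only one of the 7 past 2-fold between genotypes.

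Genes whose profile over the 4 libraries was most like each of the 7 were found by the distance between centred log2 profiles. The candidates were 9171 genes of at least 50 expected counts in a library that were listed in all 4. For Plaur the nearest was Tgm2, which encodes transglutaminase 2 (distance 0.10), at 116 FPKM in KO LPS and 114 in WT LPS, and 12.7 in KO NT and 15.3 in WT NT, followed by Cdkn1a and Sod2. For Serpinb2 they were Ch25h, Cd40 and Maff, at distances of 0.20 to 0.24. Genes not listed without LPS, as Serpinb2 was not, could not be among them. For F3 they were Irf1, Tfec and Lipg at 0.34 to 0.36, and for F10 BC018473, Cacnb3 and Rnf145 at 0.07 to 0.14. For Thbs1 the nearest was Zfp281 (0.04), then Mllt6 and Foxp1. For Plau they were Psmd13, Scpep1 and Ugp2, at 0.01 to 0.03. The nearest profiles to Thbd were S100pbp (0.21), at 5.10 FPKM in KO LPS and 1.62 in WT LPS, and 9.88 in KO NT and 8.03 in WT NT, then Tradd and Zfp524. With 4 points a profile, such likeness is a description of these libraries.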

How the data were processed

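RNA of 4 macrophage libraries, 1 per group, was sequenced by Illumina HiSeq according to the labels, and titles gave the groups. Bowtie, RSEM and the genome mm10 are named in the submitters' processing notes; their versions, the annotation, strand setting and read filters are not stated in the labels or file headers. The deposited expected counts are the authors' RSEM estimates of reads per gene, with reads of more than 1 possible gene divided between them. The deposited FPKM is the authors' value per kilobase of gene and per unit of library size. A gene missing from a table was set to 0.

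Symbols and coordinates came from RefSeq GRCm38.p6, the assembly that mm10 denotes (15897 of 15935 identifiers matched), and exon counts from GENCODE M21. With Python 3.11.15, SciPy 1.17.1 and pandas 2.3.3, a fold was the difference of log2(FPKM + 1) between libraries, taken where a gene reached 1 FPKM in either. Genes at least 2-fold apart were counted over the whole table. Ratios of FPKM have exact 95% Clopper-Pearson intervals and levels exact Poisson intervals, from counts rounded to whole numbers. The difference of responses has the exact conditional interval of the table of counts. A floor of 3 counts per library gave lower bounds, which take the LPS level as measured and hold no counting error. The intervals cover counting error only, since each group has 1 library. They also treat reads as independent, which PCR copies are not. The computations were tested on simulated data.

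The 7 genes, 6 pathway lists, markers and motifs were chosen with earlier results of these data known. A gene of the plasminogen list is not reported here and is in none of its counts or medians. The genes named from a list are those past 2-fold in a comparison with at least 50 expected counts, up to 4 per list. Other list genes named (Anxa2, S100a10, Serpine2, Mrc2, F7, Vwf, F13a1, Procr, Pros1, Tfpi, Thbs2, Thbs3 and Thbs4) were chosen after their values were seen. The 3 nearest profiles per gene were named. Alternatives were no filter or one of 5 FPKM, a pseudocount of 0.1 or 5, median-ratio scaling, equal sums, CPM and size rules of 1.5-fold and 3-fold. Added after the data were seen were 3 counts in place of 0, shares over genes of at least 50 expected counts, which are not used in the text, and the neighbouring genes.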

Additional observations from a re-analysis of the deposited data

How the results depend on the processing

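The number of the 7 genes past 2-fold with LPS was 5 higher in both genotypes under each setting except the 3-fold rule, with 4 in each, and a pseudocount of 5, with 5 in KO and 4 in WT. By the 3-fold rule 469 of all 11069 genes in KO and 439 of 10972 in WT were higher. With a pseudocount of 5 these were 505 and 485. With a pseudocount of 5, Thbs1 in WT had a log2 fold of 0.89 and Thbd in WT of -0.94. So 0 of the 7 genes were lower there, where 452 of all 10972 genes were. In KO, 1 gene (Thbd) was lower with a pseudocount of 0.1 and with the 1.5-fold rule. Of all 11069 genes, 2514 were lower with that pseudocount and 4130 by that rule. The Thbd difference between KO LPS and WT LPS rests on 61 and 18 counts. The count of the 7 genes higher was 0 with a pseudocount of 5, a filter of 5 FPKM or the 3-fold rule. All genes gave 32 of 10375, 65 of 7057 and 51 of 10375 higher under these settings. The filter of 5 FPKM left 6 of the 7 genes measured, without Thbd, so Thbd could not be counted there. With the 1.5-fold rule 2 of the 7 were higher and 1 (F3) lower, against 590 and 348 of 10375 genes. The log2 fold of Thbd lay between 0.47 and 1.76 and kept its sign. For the difference of LPS responses the count higher was 0 with a pseudocount of 5 or the 3-fold rule, and with the 1.5-fold rule 1 gene (F3) was lower. Among all 11320 genes, 48 were higher with that pseudocount and 89 by the 3-fold rule, and 488 were lower by the 1.5-fold rule. Of 262 refitted log2 folds of single genes, 256 moved by less than their counting interval and 0 of those past 2-fold changed sign. Of 160 list medians 139 stayed within it; with LPS, median-ratio scaling gave medians of 0.16 in KO and 0.30 in WT for the plasminogen list, -0.01 and 0.06 for coagulation factors, -0.25 in both for anticoagulant proteins, 0.50 and 0.58 for thrombospondins and their receptors and 0.14 and 0.07 for clade B serpins. In KO the clade B median was also 0.10 with no filter and 0.01 in CPM, and that of thrombospondins -0.13 in CPM. With no filter the anticoagulant median was -0.26 and the coagulation factor median -0.15 in WT, and with a pseudocount of 5 the anticoagulant median was -0.29 in KO and -0.24 in WT. The list of protease-activated receptors gave no median. No paired analysis was possible because each group has 1 library. Leaving out a library was not possible either. The depth does not allow a statement on F3 or Serpinb2 between the NT libraries.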

Other observations

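The genes beside the 7 on the chromosomes, the nearest protein-coding gene on each side in RefSeq, were looked at after the data were seen. Serpinb2 lies in a cluster of clade B serpins on chromosome 1. Serpinb10, 3394 bases beyond it, had 9 counts in KO LPS and 8 in WT LPS, and 5 in KO NT and 3 in WT NT, and Serpinb7 on its other side was listed in no library. F10 lies 1499 bases from F7 and 3908 bases from Proz, both genes of coagulation. F7 had at most 12 counts in a library, and Proz, which encodes protein Z, had 6 counts in KO LPS and 7 in WT LPS, and 22 in KO NT and 21 in WT NT, so it was lower with LPS where F10 was higher. Cd93, 28463 bases from Thbd and like it the gene of a C-type lectin-like membrane protein, was at 110 FPKM in KO LPS and 77.4 in WT LPS, and 151 in KO NT and 131 in WT NT. Its log2 folds with LPS were -0.46 in KO and -0.76 in WT, where the medians of all genes were -0.42 and -0.46. Rasgrp1, the neighbour of Thbs1 at lower coordinates, lies 768999 bases from it. Rasgrp1 was at 3.05 FPKM in KO LPS and 1.43 in WT LPS, and 0.20 in KO NT and 0.17 in WT NT. Its counts were fractional in WT LPS and KO NT, so its level is uncertain. Fsip1, on the other side of Thbs1, had at most 2 counts. Beside Plau and Plaur, Vcl and Camk2g were measured at 1 FPKM or more in every library, and Irgc1 and Cadm4 had at most 2 counts.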
